A study of Homo sapiens with 12 samples.

Results

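The genes described here encode the nuclear receptors of the human superfamily other than the PPARs and RXRs. They were found by symbol from a list of 40 receptor names, and each name matched exactly 1 of the 19677 genes in the tables. Counts came from 12 RNA-seq libraries of CAOV3, an established human cell line labelled as high-grade serous epithelial and taken from ovary, in 4 groups of 3 replicates. Control cells carried the solvent DMSO. The ascites group had 10% ovarian cancer ascites, a fluid that accumulates around the abdominal organs of patients, plus DMSO. A further group had 200 uM bezafibrate, a fibrate drug that activates PPAR receptors, and the combination group had the drug and 10% ascites. The labels give 16 hours for the 3 treated groups, list the genotype of all 12 libraries as WT, and mention DMSO for control and ascites alone, so each drug comparison includes any difference in solvent. All 4 groups were grown in medium with 10% fetal bovine serum, which itself carries hormones and lipids.

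Nuclear receptors are transcription factors that bind DNA through a pair of zinc fingers, usually at copies of the hexamer AGGTCA, and most carry a pocket for a small lipid-soluble ligand such as a steroid, thyroid hormone, retinoic acid, oxysterol or bile acid. Many act as heterodimers with RXR, which is also the partner of the PPARs. Others act as homodimers or monomers. Receptors with no established natural ligand are called orphan receptors. In epithelial cells they tie gene expression to hormone and lipid supply, to the circadian clock and to cell identity.

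The 12 libraries held 11831093 to 18762759 counts. Levels are given as CPM on library sizes scaled by TMM. A gene was called at an adjusted p under 0.05 in edgeR's quasi-likelihood test, with Benjamini-Hochberg adjustment over the 12470 genes tested, and n counts libraries throughout. The labels do not say whether replicates came from separate cultures or from more than 1 ascites sample, so the p-values measure only the spread between these libraries. Combination replicate 3 lay apart on the second principal component, at -22.4 against -4.37 to 9.84 for the other 11 libraries. Of the epithelial markers, KRT8, KRT18 and KRT7 were abundant, at 3005, 1784 and 762 CPM in control cells. The serous lineage markers PAX8, WT1, MUC16 and MSLN were near 0, with 122, 15, 10 and 66 counts over all 12 libraries, so the serous part of the label had little support among these markers. Among markers of other cells that ascites could carry, 5 of 7 leukocyte genes, PTPRC and CD3E among them, and all 3 platelet genes had 0 counts in every library. CD14 and LYZ had counts, control cells included. Summed leukocyte markers stood at 2.86 to 3.61 CPM in control, 2.15 to 3.43 with ascites, 2.80 to 4.46 with bezafibrate and 3.11 to 4.93 with both. Summed red cell markers (3 genes, none at 0 throughout) stood at 0.588 to 1.09, 0.606 to 1.41, 0.543 to 0.807 and 1.01 to 1.41 CPM in that order. Summed fibroblast markers (4 genes, none at 0 throughout) moved with the drug, at 9.99 to 11.3 CPM in control, 10.5 to 11.5 with ascites, 6.35 to 6.80 with bezafibrate and 5.57 to 7.21 with both. Summed mesothelial markers (3 genes) stood at 1.02 to 1.27, 0.783 to 1.09, 1.21 to 1.29 and 1.47 to 2.46 CPM in the same order of groups, and the 1 tested was not called. Of 6 tested genes on the serous epithelial list, PAX8, KRT7 and CDH1 rose with bezafibrate, where 10.1% of all genes tested rose. KRT7 and CDH1 also rose in the combination against ascites, where 10.5% of all genes rose. The adhesion gene CDH1 changed by 1.52 and 1.69 on the log2 scale. The part of these markers in the results was not tested. In these bulk libraries fewer cells of a type and less RNA per cell cannot be told apart.

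Of the 40 receptor genes, 25 had enough counts to be tested and 15 did not. The control level was set against the length of each gene's merged exons in GENCODE release 29, as CPM per kilobase, because longer transcripts collect more counts. NR2F6, an orphan receptor of the COUP-TF group, stood highest at 68.5 ± 3.41 CPM per kilobase (SD, n = 3). ESRRA, the estrogen-related receptor that drives mitochondrial genes, came next at 47.5 ± 1.61. NR2F2, a COUP-TF receptor of mesenchyme and vessels, followed at 23.9 ± 1.00, and HNF4A, a regulator of liver and gut epithelium, at 14.2 ± 0.485. The control libraries of these 4 genes did not overlap between neighbours in the order. Below them lay NR1D2 at 8.35, NR3C1 at 8.32, RARA at 7.40, THRA at 7.07 and NR0B2 at 6.88, and within this run the neighbours NR1D2 and NR3C1, RARA and THRA, and THRA and NR0B2 overlapped. RARG followed at 5.55 without overlapping NR0B2, and NR2C1, NR1D1 and THRB, the last at 4.76, each overlapped the gene above. The lowest tested genes were NR6A1 at 1.23, NR4A1 at 0.813, HNF4G at 0.669, NR4A2 at 0.651 and NR4A3 at 0.119 CPM per kilobase.

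**Figure D1:**
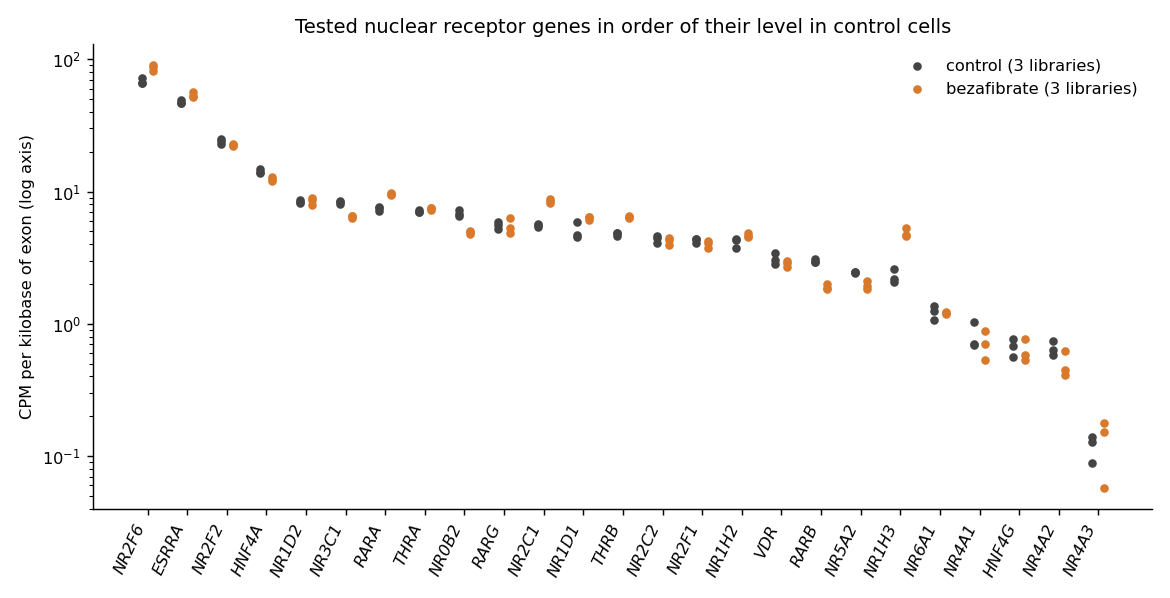
Levels of the 25 tested receptor genes in the 3 control and 3 bezafibrate libraries, as CPM per kilobase of merged exon on a log axis, ordered by the control mean. NR2F6 and ESRRA stand highest, NR4A3 lowest, and NR1H3 moves from 2.28 to 4.87 CPM per kilobase with bezafibrate.

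Among the 15 receptor genes left untested, PGR (progesterone receptor), RORB, NR2E1 and NR0B1 were at 0 throughout, and a count of 0 over the 12 libraries allows a level of up to 0.0173 CPM, for counting error only. The others had between 1 count for NR5A1 and 89 counts for RORA in total, and none reached 1 CPM in any library (highest 0.712, RORA). ESR1 and ESR2, the estrogen receptors, had 22 and 14 counts in all, ESRRB and ESRRG 3 and 2, and NR3C2, the mineralocorticoid receptor, 55. NR2E3, a photoreceptor regulator, had 39. The bile acid receptor NR1H4 had 2 counts in the 6 libraries without bezafibrate and 10 in the 6 with it. NR1I2 (PXR), a sensor of foreign compounds, had 2 and 20, where the summed library totals were 82174071 and 90963355. Its counts were at 0 in all 3 ascites libraries. With no filter on low counts NR1I2 was still not called, at an edgeR adjusted p of 0.151 for bezafibrate against control and 0.106 for the combination against ascites. NR1I3 (CAR), a related xenobiotic receptor, had 10 and 22 counts, but 661 of its exon bases lie over exons of TOMM40L on the other strand, and TOMM40L rose with bezafibrate by 0.25 on the log2 scale.

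Bezafibrate against control called 12 of the 25 tested receptor genes, 7 higher and 5 lower. This is 48.0%, where 17.6% of all 12470 genes tested were called, 10.1% higher and 7.55% lower. The members were chosen with earlier results of these data known, so this share is a description. The median absolute log2 fold change was 0.19 over the receptors and 0.09 over all genes tested. The 7 genes that rose were NR1H3, NR2C1, THRB, RARA, NR2F6, NR1D1 and ESRRA. The 5 that fell were RARB, NR0B2, NR3C1, NR5A2 and HNF4A. With ascites present in both groups, the combination against ascites again called 12, 7 higher and 5 lower, against 17.8% of all genes (10.5% higher, 7.29% lower). These drug comparisons share no library, but both come from the same fit with a shared estimate of the spread. They had 11 called receptors in common, which is 91.7% of each list, and all 11 changed in the same direction. The matching overlap over all genes was not counted, so this overlap is not read as particular to the receptors. HNF4A was called only without ascites and NR2C2 only with it, and neither differed between the drug responses in the test of the interaction. The combination against control, which shares libraries with both, called 13 (7 higher, 6 lower, against 18.2% of all genes, 10.3% higher and 7.96% lower), among them all 11 and also HNF4A and NR2F2. The direction of these counts is relative to the median gene, which moved by less than 0.01 on the log2 scale in each drug comparison.

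**Figure D2:**
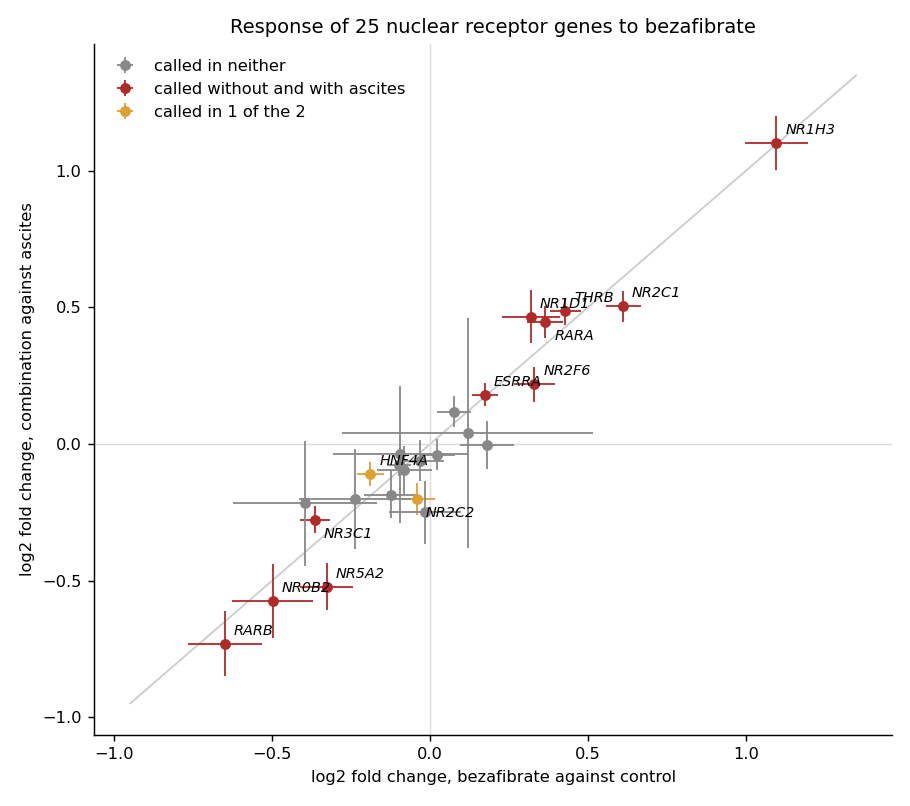
Log2 fold change of each of the 25 tested receptor genes for bezafibrate against control (horizontal) and for the combination against ascites (vertical), with bars of 1 SE and a line of equal response. Red points were called in both and orange points in 1 of them; NR1H3 lies at 1.10 on both axes and RARB at -0.65 and -0.73.

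Upstream sequence is shown for the 4 called receptors whose RefSeq promoter windows hold a receptor-type hexamer, since receptor genes can themselves be receptor targets. Windows covered 250 bases before to 50 after each annotated start (GRCh38.p14), and 35 of the 40 genes matched, 12 of the 14 called among them, with 82 windows. The letters AGGTCA, on either strand, occurred in 14.6% of these windows and in 13.8% of all 35116 windows, so the receptor genes stood near the background. A direct repeat of AGGTCA with 1 base between the copies, the repeat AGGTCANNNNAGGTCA, the extended TCAAGGTCA and the pair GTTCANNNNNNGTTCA were searched in the same way, and each of the first 3 also contains AGGTCA. The first 3 occurred in no receptor window, and in 0.0228%, 0.0199% and 0.353% of all windows. The pair of GTTCA occurred in 1 receptor window, that of a RARB start, and in 0.057% of all windows. The letters CACGTG, an E-box bound by clock factors, occurred in 9 of the 82 receptor windows (11%), from 7 genes, and in 7.26% of all windows. Windows of nearby starts can overlap, as for ESR2 and PGR, so a site can be counted more than once in these shares. The 250 bases before each start follow, all on the plus strand, with the matched letters in capitals and the position of their first base given relative to the start.
NR1H3, AGGTCA at -140, chr11:47248050-47248299: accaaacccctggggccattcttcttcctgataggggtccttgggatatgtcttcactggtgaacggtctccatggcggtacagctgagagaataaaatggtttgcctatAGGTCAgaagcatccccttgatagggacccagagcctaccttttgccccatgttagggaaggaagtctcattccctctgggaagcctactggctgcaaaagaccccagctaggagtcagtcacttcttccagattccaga
RARA, AGGTCA at -230, chr17:40308930-40309179: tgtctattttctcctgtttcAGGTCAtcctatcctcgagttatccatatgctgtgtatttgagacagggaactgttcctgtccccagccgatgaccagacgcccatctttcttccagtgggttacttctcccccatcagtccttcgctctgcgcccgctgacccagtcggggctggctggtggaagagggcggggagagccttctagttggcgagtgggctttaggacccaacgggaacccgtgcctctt
RARB, paired GTTCA at -52, chr3:25428013-25428262: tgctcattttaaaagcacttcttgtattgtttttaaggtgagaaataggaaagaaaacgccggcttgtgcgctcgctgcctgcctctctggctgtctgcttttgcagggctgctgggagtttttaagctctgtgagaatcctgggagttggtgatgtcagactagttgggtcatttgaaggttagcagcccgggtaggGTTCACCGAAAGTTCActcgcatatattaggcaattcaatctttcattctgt
RARB at another start, AGGTCA at -52, chr3:25340552-25340801: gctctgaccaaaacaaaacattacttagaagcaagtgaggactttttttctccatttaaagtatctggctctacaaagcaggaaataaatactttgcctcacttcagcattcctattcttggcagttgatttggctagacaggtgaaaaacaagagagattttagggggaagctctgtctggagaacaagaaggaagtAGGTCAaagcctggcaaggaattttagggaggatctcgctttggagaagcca
NR5A2, AGGTCA at -84, chr1:200027460-200027709: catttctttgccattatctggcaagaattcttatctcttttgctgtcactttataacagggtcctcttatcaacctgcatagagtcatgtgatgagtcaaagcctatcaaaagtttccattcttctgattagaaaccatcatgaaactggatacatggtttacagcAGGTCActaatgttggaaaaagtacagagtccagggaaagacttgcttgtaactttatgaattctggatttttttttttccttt
The RARB window with the paired GTTCA is the textbook retinoic acid response element of that gene. A match here is a description of letters and not evidence of binding.

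Among the tested receptors NR1H3, an oxysterol receptor, had the largest fold change in each drug comparison. NR1H3 (LXR alpha, ENSG00000025434.19, chr11:47248300-47269033) senses oxidised cholesterol and switches on cholesterol efflux. It stood at 9.82, 9.33 and 11.8 CPM in control replicates 1 to 3, at 11.5, 10.7 and 10.8 with ascites, at 21.4, 20.8 and 24.0 with bezafibrate and at 26.7, 20.8 and 22.7 with both. All 6 libraries with the drug lay above all 6 without it. The log2 fold change was 1.10 for bezafibrate against control (SE 0.0996, edgeR adjusted p 3.28e-11) and 1.10 for the combination against ascites (SE 0.0994, edgeR adjusted p 2.72e-11). Its paralog NR1H2 (LXR beta) had 14 to 16.3 CPM in control and 17 to 18.1 with bezafibrate, a log2 fold change of 0.18 that was not called (95% interval 0.0079 to 0.351, edgeR adjusted p 0.157). Per kilobase, NR1H2 was the higher of the pair in control cells (4.12 against 2.28) and their libraries did not overlap. With bezafibrate the levels were 4.65 for NR1H2 and 4.87 for NR1H3, and the libraries overlapped. NR1H3 shares 4.17% of its exon bases with ACP2 on the other strand, and ACP2 had a log2 fold change of 0.14 that was not called.

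Genes known as LXR targets were read beside the receptor. This list, like the other gene lists below, was chosen with earlier results of these data known, so its shares are a description. Of 11 listed genes 9 were tested, and 7 rose with bezafibrate while 0 fell, where 10.1% of all genes tested rose and 7.55% fell. The median log2 fold change was 0.33. ABCG1, a cholesterol exporter, went from 6.40 ± 0.259 to 12.4 ± 0.284 CPM (SD, n = 3). LPCAT3, which remodels phospholipids, went from 91.0 ± 1.68 to 175.7 ± 1.97 CPM, and the cholesterol exporter ABCA1 from 20.6 ± 1.82 to 35.7 ± 0.894 CPM. In the combination against ascites 4 of the 9 rose and 1 fell, against 10.5% and 7.29% of all genes, with a median of 0.20. The gene that fell was SREBF1, from 137.3 ± 1.72 to 119.9 ± 7.78 CPM (log2 fold change -0.19, edgeR adjusted p 0.00106). With bezafibrate against control SREBF1 had -0.10 and was not called (edgeR adjusted p 0.0995). Ascites against control called 1 of the 9, the desaturase gene SCD, which fell by 0.22 on the log2 scale. Of 6 listed PPAR and RXR genes 5 were tested, and with bezafibrate 1 was called higher and 1 lower, against 10.1% and 7.55% of all genes. Their log2 fold changes ran from -0.39 to 0.62. PPARD had 9.84 CPM in control and 15.2 with bezafibrate, and PPARG 89.8 and 68.8.

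The thyroid hormone and retinoic acid receptors split by paralog. THRB (thyroid hormone receptor beta, ENSG00000151090.20, chr3:24117153-24495708) stood at 50.6, 53.0 and 52.9 CPM in control, 50.7, 48.2 and 52.9 with ascites, 71.3, 69.9 and 69.2 with bezafibrate and 72.7, 69.7 and 69.9 with both. The drug libraries all lay above the others. Its log2 fold change was 0.43 without ascites (SE 0.048, edgeR adjusted p 5.67e-09) and 0.49 with it (SE 0.049, edgeR adjusted p 5.37e-10). THRA, the alpha receptor, had 48.6 to 50.3 CPM in control and 50.6 to 52.7 with bezafibrate, and its 0.08 was not called (95% interval -0.031 to 0.184).

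RARA (retinoic acid receptor alpha, ENSG00000131759.18, chr17:40309180-40357643) stood at 35.3, 35.9 and 33.8 CPM in control, 32.4, 31.2 and 34.1 with ascites, 45.0, 44.4 and 45.9 with bezafibrate and 45.6, 43.5 and 44.1 with both. RARA was thus higher in every library with the drug, by 0.36 without ascites (SE 0.056, edgeR adjusted p 3.22e-06) and 0.45 with it (SE 0.058, edgeR adjusted p 1.24e-07). RARB (beta, ENSG00000077092.20, chr3:24829321-25597932), itself a classical retinoic acid target, went the other way. Its levels were 10.8, 10.8 and 11.5 CPM in control, 12.2, 10.9 and 12.2 with ascites, 6.87, 7.37 and 6.80 with bezafibrate and 6.16, 7.05 and 8.36 with both, with no overlap between libraries with and without the drug. The log2 fold change was -0.65 (SE 0.116, edgeR adjusted p 4.27e-05) without ascites and -0.73 (SE 0.119, edgeR adjusted p 9.43e-06) with it. RARG (gamma) ranged from 24.8 to 32.1 CPM over the 12 libraries, and its -0.03 for bezafibrate against control was not called (95% interval -0.186 to 0.120).

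Genes that respond to or handle retinoic acid also moved in both directions. Of 11 tested genes, 3 rose and 3 fell with bezafibrate (10.1% and 7.55% of all genes), with a median of -0.14. ALDH1A3, which makes retinoic acid, went from 133.2 ± 6.39 to 96.5 ± 1.53 CPM. The retinol transporter STRA6 rose from 35.8 ± 2.18 to 49.1 ± 2.73 CPM, and the retinol dehydrogenase RDH10 from 115.1 ± 2.01 to 149.5 ± 2.33 CPM. With ascites in both arms 2 rose and 3 fell (10.5% and 7.29% of all genes).

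Among the testicular, HNF4 and COUP-TF receptors, 7 of 9 were tested. Bezafibrate raised 2 and lowered 1, against 10.1% and 7.55% of all genes tested. NR2C1 (testicular receptor 2, ENSG00000120798.17, chr12:95020229-95073618), an orphan receptor that often represses, stood at 35, 36.9 and 36.6 CPM in control, 38.5, 35.7 and 39.6 with ascites, 55.2, 53.5 and 57.2 with bezafibrate and 52.1, 56.0 and 54.1 with both. The 6 libraries with the drug lay above the 6 without it. Its log2 fold change was 0.61 (SE 0.056, edgeR adjusted p 3.13e-11) without ascites and 0.50 (SE 0.057, edgeR adjusted p 4.93e-09) with it. The paralog NR2C2 (testicular receptor 4) had 48.1 to 54.3 CPM in control and 46.6 to 52.9 with bezafibrate, a difference of -0.04 that was not called. It was called lower in the combination against ascites, at 45.2, 50.5 and 47.0 CPM against 55.5, 55.6 and 52.7, which is -0.20 on the log2 scale (SE 0.059, edgeR adjusted p 0.0121). That call was lost without ascites replicate 1, ascites replicate 2 or combination replicate 1, with a highest edgeR adjusted p of 0.0818. The interaction for NR2C2 was -0.16 (SE 0.082) and was not called, and 10.1% of its exon bases lie over exons of MRPS25 on the other strand.

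NR2F6 (ENSG00000160113.6, chr19:17231883-17245919), the highest per kilobase in control cells, stood at 194, 178 and 178 CPM in control, 189.9, 198 and 183 with ascites, 219, 232 and 241 with bezafibrate and 231, 236 and 196 with both. Combination replicate 3 lay within the range of the ascites libraries. The log2 fold change was 0.33 (SE 0.064, edgeR adjusted p 0.00272) without ascites and 0.22 (SE 0.065, edgeR adjusted p 0.0365) with it. With ascites the call was lost under upper-quartile scaling and without ascites replicate 1, ascites replicate 3, combination replicate 1 or combination replicate 2 (highest edgeR adjusted p 0.152). In the combination against control it was called, but not without combination replicate 1 (edgeR adjusted p 0.0707). Another listed gene, AC010646.1, covers 8.26% of its exon bases on the same strand, so the division of counts between them is uncertain. NR2F2 (ENSG00000185551.15) had 161, 148 and 155 CPM in control, 146, 146 and 148 with ascites, 142, 144 and 147 with bezafibrate and 143, 141 and 132 with both. It was called in the combination against control, at -0.15 (SE 0.039, edgeR adjusted p 0.00377), and without control replicate 1 the edgeR adjusted p was 0.0539. Bezafibrate against control gave -0.10 and no call (edgeR adjusted p 0.0730), but it was called under upper-quartile scaling, in a fit of only the groups compared and without control replicate 2 (lowest edgeR adjusted p 0.0286). NR2F1 ranged from 15.9 to 20.9 CPM over the 12 libraries and was not called.

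HNF4A (ENSG00000101076.19, chr20:44355699-44434596) stood at 108, 101 and 102 CPM in control, 96.1, 97.7 and 95.2 with ascites, 91.3, 88.0 and 94.3 with bezafibrate and 87.2, 88.6 and 92.2 with both. Control libraries were the highest of the 4 groups. It fell with bezafibrate by 0.19 on the log2 scale (SE 0.042, edgeR adjusted p 0.000837). The combination against ascites gave -0.11 and was not called (edgeR adjusted p 0.0745), although it was called under upper-quartile scaling and without combination replicate 3. HNF4G ranged from 1.53 to 3.68 CPM and was not called.

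NR1D1 (REV-ERB alpha, ENSG00000126368.6, chr17:40092793-40100589), a repressor in the circadian clock, stood at 16.4, 12.9 and 12.6 CPM in control, 11.7, 13 and 12.4 with ascites, 17.7, 17 and 17.9 with bezafibrate and 17.5, 17.4 and 16.0 with both. Control replicate 1 lay above combination replicate 3, and the other 5 libraries without the drug lay below all 6 with it. The log2 fold change was 0.32 (SE 0.092, edgeR adjusted p 0.0114) without ascites and 0.47 (SE 0.097, edgeR adjusted p 0.000388) with it. Without control replicate 2 or control replicate 3 the first call was lost, with a highest edgeR adjusted p of 0.1003. The call in the combination against control (0.28, edgeR adjusted p 0.0369) was lost under upper-quartile scaling, with DESeq2, in a fit of only the groups compared, and without control replicate 2 or 3 or combination replicate 1 or 2 (highest adjusted p 0.204, edgeR). NR1D1 and THRA lie tail to tail on opposite strands, and 9.49% of the exon bases of NR1D1 are also exon of THRA, so without a stated strand setting some reads cannot be assigned to either. NR1D2 (REV-ERB beta) ranged from 46.1 to 52.5 CPM over the 12 libraries and was not called. Of 12 tested clock genes, 1 rose with bezafibrate and 2 fell, where 17.6% of all genes were called: the activator NPAS2 rose from 54.4 ± 0.987 to 66.4 ± 1.08 CPM, and the feedback repressors PER2 and PER1 fell by 0.29 and 0.26 on the log2 scale. The median over the 12 was -0.05. In the combination against ascites 2 rose, NPAS2 and CRY1, and PER2 fell, where 17.8% of all genes were called, and PER1 was not called (-0.19, edgeR adjusted p 0.211).

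NR3C1 (glucocorticoid receptor, ENSG00000113580.15, chr5:143277931-143435512) binds cortisol and related steroids. It stood at 74.4, 77.9 and 76.6 CPM in control, 73.8, 72.1 and 79.3 with ascites, 60.0, 57.7 and 60.2 with bezafibrate and 59.5, 65.3 and 61.8 with both. The drug libraries were all lower than the libraries without it. The log2 fold change was -0.36 (SE 0.048, edgeR adjusted p 2.08e-07) without ascites and -0.28 (SE 0.050, edgeR adjusted p 4.44e-05) with it. Of 13 tested glucocorticoid target genes 5 rose and 5 fell with bezafibrate, against 10.1% and 7.55% of all genes, with a median of -0.11. In the combination against ascites 5 rose and 3 fell, against 10.5% and 7.29%, with a median of -0.07. CEBPD, a transcription factor, rose from 3.11 ± 0.496 to 6.73 ± 1.07 CPM and the secreted protein gene CRISPLD2 from 1.36 ± 0.286 to 2.86 ± 0.472 CPM. The metallothionein MT2A fell from 135.9 ± 2.36 to 96.2 ± 0.584 CPM.

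ESRRA (ENSG00000173153.17, chr11:64305524-64316743) stood at 149.6, 141 and 142 CPM in control, 151, 148 and 146 with ascites, 157, 159 and 172 with bezafibrate and 170.3, 176 and 157 with both. Libraries with the drug were all above those without it. The rise was 0.17 (SE 0.041, edgeR adjusted p 0.0018) without ascites and 0.18 (SE 0.042, edgeR adjusted p 0.00137) with it. ESRRA shares 9.37% of its exon bases with TRMT112 on the other strand, whose -0.02 was not called. The list of estrogen receptor targets had 8 of 11 tested genes higher with bezafibrate and 1 lower, against 10.1% and 7.55% of all genes, with a median of 0.24, while ESR1 and ESR2 were close to 0. TFF1, a secreted mucosal peptide, went from 49.8 ± 5.42 to 100.7 ± 1.72 CPM, the scaffold gene PDZK1 from 21.3 ± 2.80 to 39.3 ± 2.20 CPM and the growth factor AREG from 13.3 ± 1.39 to 19.6 ± 0.570 CPM. PDZK1 is also known as a PPAR target. With ascites in both arms the list again had 8 higher and 1 lower, against 10.5% and 7.29% of all genes.

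NR5A2 (liver receptor homolog 1, ENSG00000116833.14, chr1:200027710-200177415), a regulator of bile acid and steroid genes, stood at 18.7, 18.3 and 18.7 CPM in control, 19.7, 20.3 and 19.998 with ascites, 16.0, 14.5 and 13.9 with bezafibrate and 14.6, 12.5 and 14.4 with both. All drug libraries were lower than all others. Its log2 fold change was -0.33 (SE 0.083, edgeR adjusted p 0.00377) without ascites and -0.52 (SE 0.086, edgeR adjusted p 1.12e-05) with it. NR0B2 (SHP, ENSG00000131910.5, chr1:26911489-26913975) lacks a DNA-binding domain and represses NR5A2 and other receptors by binding them. It stood at 8.39, 7.86 and 7.61 CPM in control, 8.33, 6.79 and 7.95 with ascites, 5.67, 5.49 and 5.77 with bezafibrate and 4.99, 5.86 and 4.73 with both, again with no overlap. The log2 fold change was -0.50 (SE 0.129, edgeR adjusted p 0.00432) without ascites and -0.58 (SE 0.136, edgeR adjusted p 0.00177) with it. NR6A1, an orphan receptor of germ cells, ranged from 7.57 to 10.4 CPM and was not called.

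The receptors not yet described gave no call. The vitamin D receptor gene VDR had 16.1 to 19.5 CPM in control and 15.2 to 16.9 with bezafibrate, a log2 fold change of -0.12 (95% interval -0.297 to 0.0486). Of 5 tested vitamin D target and handling genes 0 were called by edgeR with bezafibrate, where 17.6% of all genes were called, and 1 had an unadjusted p under 0.05. NR4A1, NR4A2 and NR4A3, the ligand-independent early-response receptors, stood at 5.93, 2.58 and 0.750 CPM in control and 5.13, 1.96 and 0.818 with bezafibrate. Their 95% intervals for the log2 fold change ran from -0.599 to 0.123, from -0.857 to 0.0646 and from -0.689 to 0.928, so changes of moderate size could not be detected at this depth. Of 5 tested targets of PXR and CAR 1 rose and 2 fell, against 10.1% and 7.55% of all genes: the drug-metabolising CYP2B6 rose from 203.2 ± 6.44 to 305.4 ± 4.42 CPM while the transporters ABCB1 and ABCC2 fell by 0.50 and 0.34 on the log2 scale. Of 16 tested coregulators 1 rose and 2 fell with bezafibrate, near the 17.6% called over all genes: the corepressor NCOR1 rose by 0.26, and LCOR and CREBBP fell by 0.16 and 0.13. In the combination against ascites NCOR1 rose by 0.29, and neither LCOR nor CREBBP was called. Of 7 listed FXR targets, only ABCB4 had enough counts to be tested, and it was not called.

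**Figure D3:**
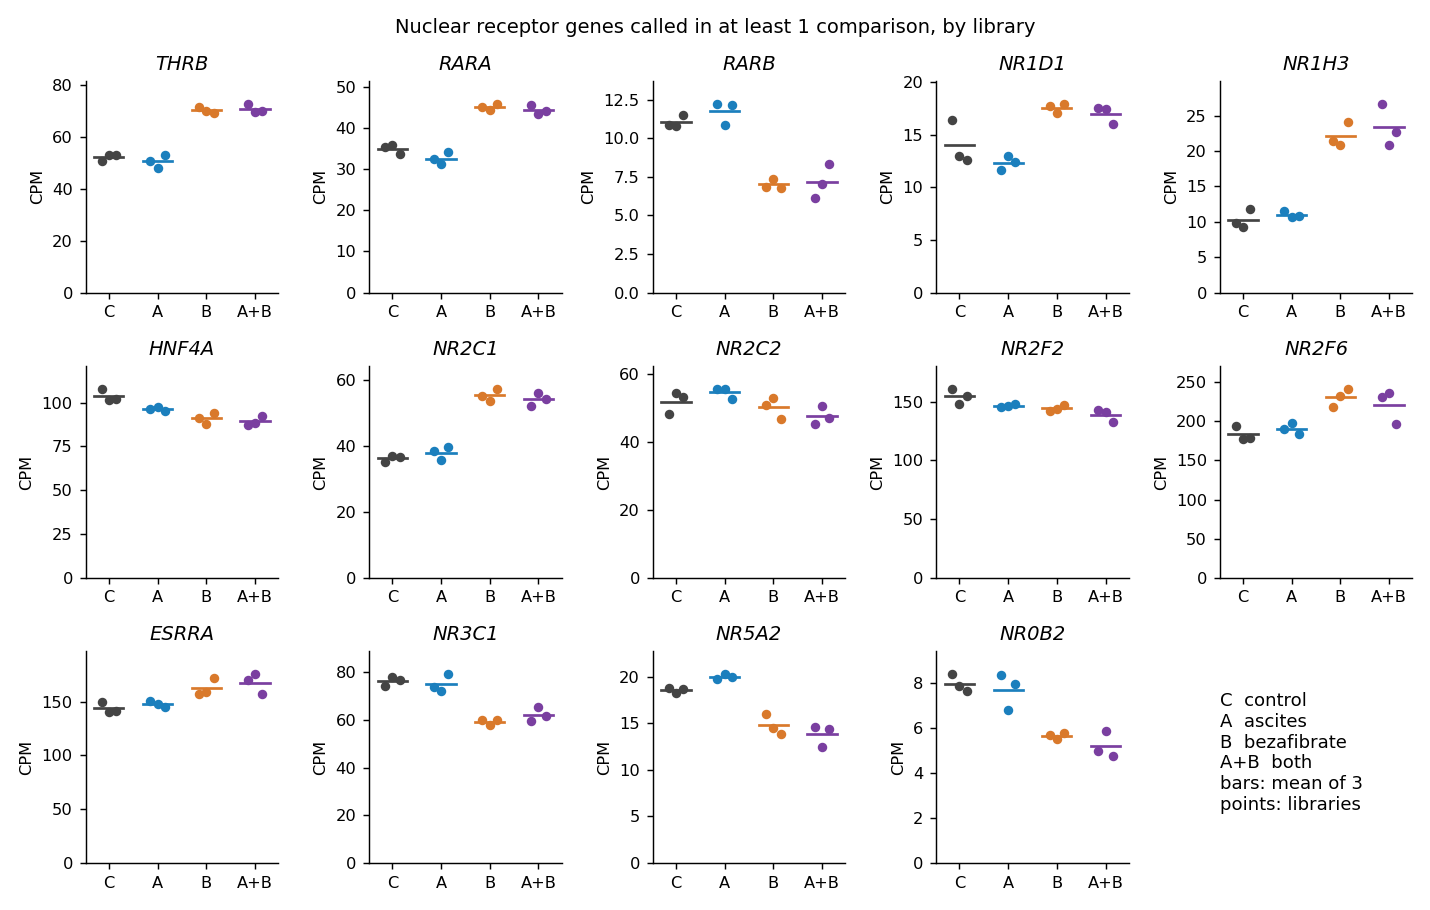
CPM of the 14 receptor genes called in at least 1 comparison, with each library as a point and the mean of 3 as a bar, for control (C), ascites (A), bezafibrate (B) and both (A+B). Levels change between groups without and with the drug, as in NR1H3 (10.3 to 22.1 CPM) and RARB (a mean of 11.8 with ascites to 7.19 with both). Control and ascites libraries do not overlap for HNF4A and NR5A2. Neither was called between those groups (edgeR adjusted p 0.741 and 0.924). The share of all genes with such separation was not counted.

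**Figure D4:**
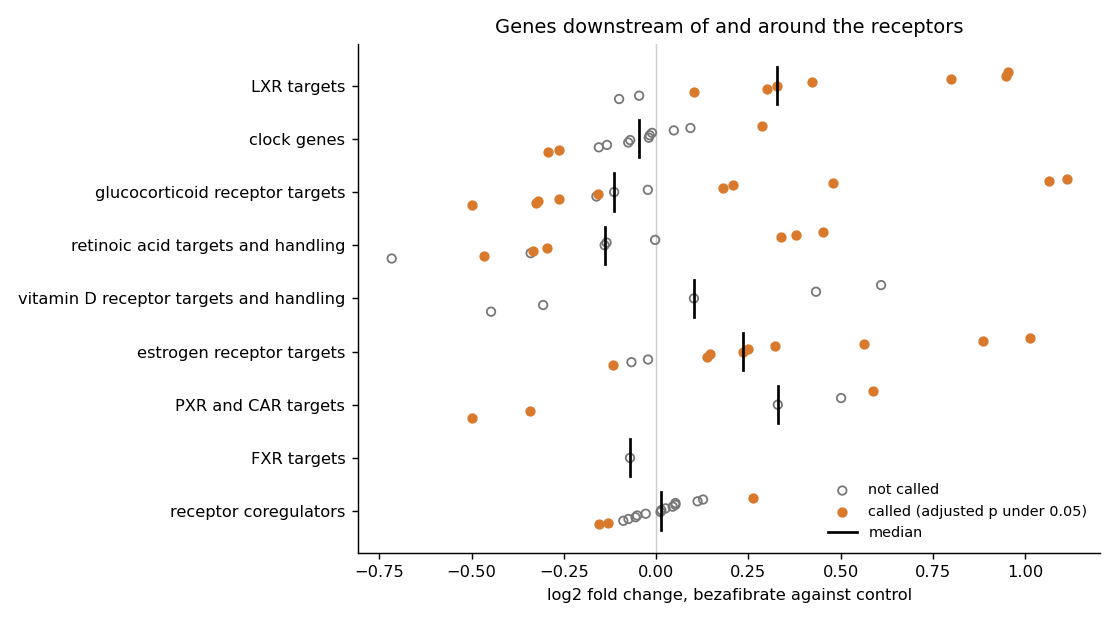
Log2 fold change for bezafibrate against control of the tested genes in 9 lists around the receptors, with called genes filled and each list's median as a bar. The median is 0.33 for LXR targets, 0.24 for estrogen receptor targets and 0.01 for receptor coregulators.

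For ascites against control edgeR called 0 of the 25 receptors, where 0.0882% of all genes were called. DESeq2 also called 0. At an unadjusted p under 0.05 there were 3 receptors, against 6.01% of all genes: THRA, HNF4A and HNF4G, all lower with ascites. THRA had 50.3, 48.6 and 48.7 CPM in control and 44.2, 39.7 and 43.8 with ascites, with no overlap, at a log2 fold change of -0.21 (SE 0.056, unadjusted p 0.000728, edgeR adjusted p 0.341). The combination against bezafibrate, which shares no library with that comparison, called 0 by edgeR and 0 by DESeq2, where 0.128% of all genes were called. The 1 receptor at an unadjusted p under 0.05 there, against 4.79% of all genes, was THRA again, at 48.0, 46.4 and 44.1 CPM against 50.6, 52.5 and 52.7 (log2 fold change -0.16, SE 0.054, edgeR adjusted p 0.637). Neither THRA value passed the adjusted test. The interaction, which asks whether the drug response differed with ascites, called 0 receptors by edgeR and 0 by DESeq2, with 0 at an unadjusted p under 0.05, where 0% of all genes were called and 3.57% lay under that unadjusted p. The largest interaction in size was that of NR6A1, -0.23 (SE 0.163).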

How the data were processed

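RNA-seq gene counts of 12 CAOV3 libraries were analysed, 3 in each of 4 groups named in the sample titles. Each library has 1 table of gene counts, whole numbers as the authors deposited them. The submitters' processing notes name GRCh38, Trimmomatic 0.39, STAR 2.7.9a, RSEM 1.3.3 and DESeq2 1.28.1 without roles. The annotation and strand setting are not given in the sources used here. How reads shared by overlapping genes were counted is therefore uncertain.

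Genes were kept by filterByExpr (minimum count 10, minimum total count 15), which left 12470 of 19677. Libraries were scaled by TMM and fitted together, leaving 8 residual degrees of freedom, in edgeR 4.0.16 (glmQLFit, robust, and glmQLFTest, R 4.3.3). Standard errors are the absolute change over the square root of F, and 95% intervals use the test's degrees of freedom. The common biological coefficient of variation was 3.06%. Depth limits the genes with few counts most.

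Replicate pairs within a group differed beyond counting noise (chi-square per degree of freedom 1.44 to 4.45 for genes at 20 or more counts across the pair), so none was counted as a duplicate. The code was tested on simulated data. Alternatives were RLE and upper-quartile scaling, no filter, DESeq2 1.42.0, a replicate block, fits of only the groups compared, and each library left out. Named receptors are those called in at least 1 of 6 contrasts, with the rest by range; list genes are at most the 3 called with the largest change. The members and gene lists were chosen with earlier results of these data known. PAX8, WT1, MUC16 and MSLN were named for the check of the cell label, and PPARD and PPARG for context, after their values were seen. SREBF1 was named as the listed LXR target that fell in the combination against ascites, and CD14 and LYZ to complete the leukocyte list. Their values had also been seen. Sequences and gene coordinates are from RefSeq (GRCh38.p14).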

Additional observations from a re-analysis of the deposited data

How the results depend on the processing

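The number of receptor genes called stayed within 1.5 times its value in every alternative run, for all 6 contrasts. With whole groups kept, bezafibrate against control called 12 to 13, its counterpart with ascites in both arms 12, and the combination against control 12 to 13. With 1 library left out these ranged from 11 to 12, from 10 to 13 and from 11 to 14. It was 0 in every alternative for both ascites contrasts and for the interaction. With a replicate block the counts were 12, 12 and 13. Same-numbered libraries did not deviate together, with correlations of -0.135 to 0.0613 over 18 pairs. No pairing by number was seen, although a weak one could have been missed. Without a filter 36 receptors were tested and none of the 11 added was called. Single receptors were followed in 49 results, chosen because they were called or had an unadjusted p under 0.05 in the main fit. None of these changed sign, which that choice made likely. Of their 588 values in the alternative runs 19 lost and 6 gained a call. Those were values of NR1D1, NR2C2, NR2F2, NR2F6, HNF4A and HNF4G, and the cause was not tested. Results outside this choice did change sign, for 5 receptors in the combination against bezafibrate without combination replicate 3. Over all genes, DESeq2 called 1748 and edgeR 2199 for bezafibrate against control. The small counts over all genes moved more: ascites against control called 11 genes, 59 without a filter, 33 in a fit of only the groups compared and 3 to 5 with a control or ascites library left out. The combination against bezafibrate called 16 genes, 52 without a filter, 7 in a fit of only the groups compared and 9 to 28 with 1 library left out, where 28 was without combination replicate 3. The interaction called 0 genes, 36 without a filter, 1 with DESeq2, 1 with a replicate block and 3 without combination replicate 1. Precision was lower for receptors with fewer counts. The SE of the log2 fold change for bezafibrate against control was 0.399 for NR4A3, 0.227 for NR4A2, 0.177 for NR4A1 and 0.041 for ESRRA. For the receptors with few counts only large changes could have been detected.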
